A study of Mus musculus with 1392 samples.

Results

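The cells described here are haematopoietic stem cells of old C57BL/6 mice, sorted from marrow as lineage-negative, Sca-1 and Kit positive (LSK), CD150+, CD48-, CD34- and Vwf+. They are all cells whose column names begin with Old1, Old2 or Old3, 1060 of the 1392 cells in the table, of which set Old 1 has 306, set Old 2 has 380 and set Old 3 the rest. The remaining 332 cells were sorted by the same phenotype from young mice, 181 in Young 1 and 151 in Young 2, and serve only as a reference. Each cell was profiled by a plate-based single-cell ATAC-seq protocol. No genetic change and no treatment is named for either age, and the age in months is not stated in the sources used here. The labels do not explain what a set is (mouse, pool or plate). Values are therefore given per set, and cells of 1 set were not treated as replicates of old age.

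In ATAC-seq a transposase inserts sequencing adapters into DNA that is not covered by nucleosomes, so a count at a peak marks an accessible stretch in that cell. A diploid cell has few copies of each stretch, which makes single-cell profiles sparse, and a peak without a count is not thereby closed. The Vwf product, von Willebrand factor, acts in clotting, and Vwf-positive stem cells are known for a platelet bias. Slamf1 encodes CD150, Kit the stem cell factor receptor and Ly6a the Sca-1 antigen. These 4 marker genes could not be looked up, because the peaks are named by position in build mm9 and no gene annotation of that build was used, so the sort was not checked against accessibility. Peaks are given below as the table names them, and no gene, exon or intron is assigned to them.

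Depth set much of what could be seen, and Old 1 stood apart from the other old sets. Median counts per cell were 9623 for Old 1, 4434 for Old 2 and 3604.5 for Old 3. Old 1 ran from 388 to 96486 counts, with 85 cells (27.8%) under 2000 and another 85 at 20000 or more. In Old 2 and Old 3, 82.9% and 81.3% of cells lay between 2000 and 8000. To compare cells at equal depth, each was thinned at random, without replacement, to 2000 counts. This kept 922 old cells, of which 221 were of Old 1, 337 of Old 3 and the rest of Old 2, and left out 138 shallower ones (85, 16 and 37 of Old 1, Old 2 and Old 3).

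At equal depth the old cells shared a landscape of very many rarely detected peaks and a short list of widely detected ones. A peak is called open in a cell with 1 or more counts. The median of the 115295 peaks was open in 0.905% of cells in Old 1, 0.824% in Old 2 and 0.890% in Old 3. No peak reached 50% of cells in any old set. At 25% of cells or more there were 16, 38 and 35 peaks, at 10% or more 1741, 1642 and 1515, and at 5% or more 8896, 8570 and 9022 peaks. A further 28128, 18627 and 20092 peaks had no thinned count, which allows a share of up to 1.36%, 0.824% and 0.890% of cells (3 cells of each set, counting error only). Over all counts of the old cells, 249 peaks had none.

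**Figure D1:**
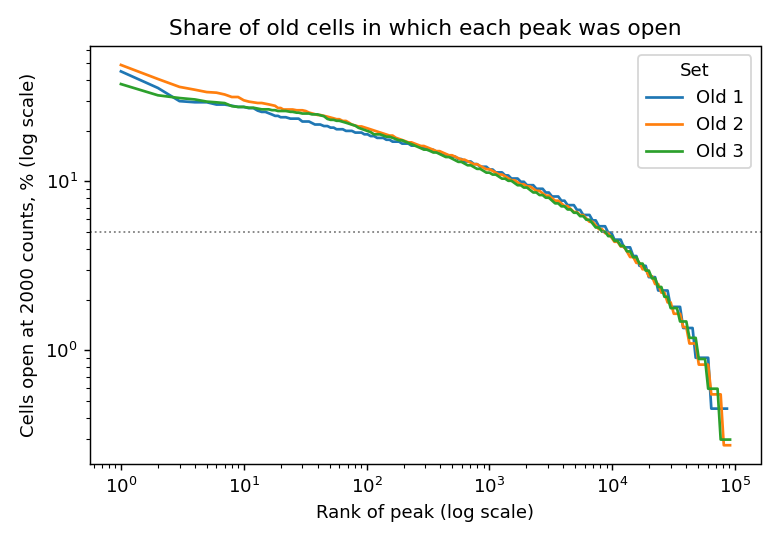
Share of cells in which a peak was open after thinning to 2000 counts (y axis, percent, log scale) against the rank of the peak (x axis, log scale), 1 line for each old set. The dotted line marks 5% of cells, which 8570 to 9022 peaks reached. The 3 lines lie close together from rank 100 to this level and part among the rarest peaks, where Old 1 ends first.

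A cell showed about as many different peaks as it had counts. The median number of open peaks at 2000 counts was 1922 in Old 1 (1822 to 1955), 1867.5 in Old 2 (1777 to 1930) and 1866 in Old 3 (1560 to 1931). Counts were nevertheless concentrated. The top 1% of peaks held 9.38%, 10.0% and 9.64% of counts, and the top 10% held 46.1%, 46.3% and 45.2%. Between 13264 and 13749 peaks together carried 50% of the counts in each set.

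Wide peaks carried a large part of the signal. The 14171 peaks of 1000 bp or more, 12.3% of all, held 41.5%, 41.1% and 39.5% of the counts, and 44.3%, 42.0% and 42.0% of them were open in at least 5% of cells. The 34412 peaks under 300 bp, 29.8% of all, held 7.11%, 7.05% and 7.04%, and 0.128%, 0.166% and 0.134% of them reached 5%. Width and share are not independent, since a wider interval collects more insertions.

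The 10 peaks described next were chosen by the highest minimum share over the 3 old sets. The first was chr5:148422919-148423286, a narrow peak, open in 44.8% of cells in Old 1 (95% Clopper-Pearson interval 38.1 to 51.6), 48.9% in Old 2 (43.7 to 54.2) and 37.7% in Old 3 (32.5 to 43.1). Other narrow ones were chr8:86280582-86280977 (395 bp) at 35.7%, 40.4% and 27.6% and chr8:73956900-73957161 (261 bp) at 27.1%, 34.9% and 26.1%. In all 3 the order of the sets was the same, with Old 2 highest and Old 3 lowest. They held on average 8.96, 6.95 and 4.93 counts per unthinned open cell in Old 1, 3.55, 2.95 and 2.36 in Old 2 and 2.58, 2.21 and 2.02 in Old 3. All 3 were open in most young cells (85.9% and 86.8%, 76.3% and 83.3%, and 75.7% and 77.1% in Young 1 and Young 2).

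Another 3 of the 10 lay close together on chromosome 11. The peak chr11:87256211-87257334 was open in 29.9%, 31.6% and 32.3% of cells in Old 1, Old 2 and Old 3. Its neighbour chr11:87275130-87276505 was at 29.4%, 36.3% and 29.7%, and chr11:87261649-87262933 at 27.6%, 33.5% and 30.6%. These are wide peaks (1123, 1375 and 1284 bp) whose young values ran from 23.6% to 36.8%. The remaining wide ones were chr12:56255306-56256824 (29.4%, 26.1% and 24.9%), chr19:4112948-4114380 (28.5%, 25.3% and 24.6%) and chr11:115880192-115882214 (25.8%, 29.1% and 26.4%). The last of these was open in 8.47% and 9.03% of young cells, and the young values of the other pair, 21.5% to 25.4%, lay near the old ones. The tenth, chr5:60433881-60434407, was at 25.3%, 29.4% and 31.2% and comes back below among the most variable peaks.

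The share of cells open at a peak was correlated between the 3 sets. Across peaks with a thinned count in either set, Pearson's r of the shares was 0.877 for Old 1 with Old 2 (105231 peaks), 0.863 for Old 1 with Old 3 and 0.909 for Old 2 with Old 3. Spearman's rho was lower, at 0.691, 0.686 and 0.745. These are correlations across peaks, which share the depth and width effects of a peak list and are no replicates, so they have no p-value. Of the 1000 most open peaks of each set, the pairs of old sets had 633, 579 and 685 in common, while an old and a young set had 526 to 604 in common.

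**Figure D2:**
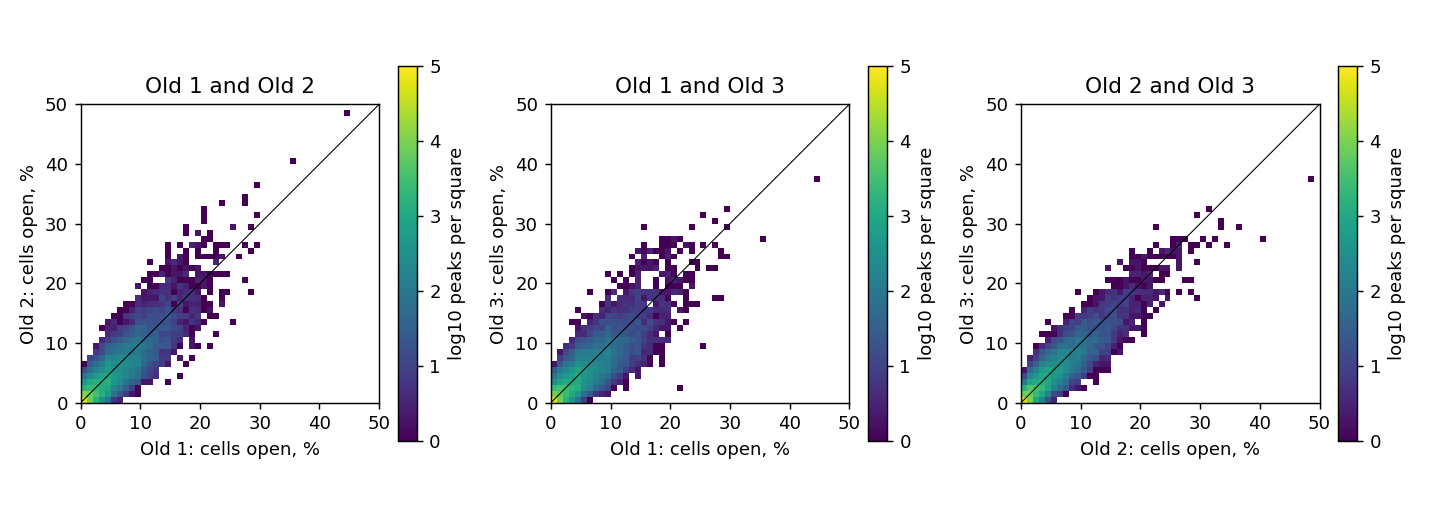
Share of cells open in 1 old set (x axis, percent) against another (y axis, percent) for all 115295 peaks, as the number of peaks in each square of 1 by 1 percentage point (colour, log10). Peaks follow the diagonal line in each panel, most closely for Old 2 with Old 3.

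The spread of differences between sets was set beside counting error. Among peaks open in at least 5% of cells of either set, the difference in share had an SD of 2.65 points for Old 1 and Old 2 (11081 peaks), 2.77 for Old 1 and Old 3 and 2.20 for Old 2 and Old 3. The binomial SD of such a difference (root mean square) was 2.20, 2.21 and 1.94 points. A peak entered when either set reached 5%, and this choice by itself widens the differences. The excess over the binomial SD therefore cannot be read as more than counting error. It was larger for the pairs with Old 1 than for the pair without it, and the part of the choice in this was not tested.

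Among the 12533 peaks open in 5% of cells in at least 1 old set, the highest set exceeded the lowest by a median of 1.53 times, with 2597 peaks (20.7%) beyond 2 times and 54 beyond 5 times. A set under 3 open cells was put at 3 cells for this ratio. Counting alone puts such a ratio above 1, since peaks entered by their highest set and a share of 5% rests on few cells. How many peaks would pass these limits by counting alone was not computed. The 10 peaks with the largest ratio all had their highest share in Old 1. The largest belonged to chr10:69373215-69373732, open in 21.3% of cells in Old 1, 9.34% in Old 2 and 2.37% in Old 3, a ratio of 8.96. It was marked by many counts per open cell before thinning, 8.41, 7.36 and 5.07 in the same order. In the next, chrX:166410650-166411521, the shares were 6.79%, 0.275% and 2.67%, at least 8.24-fold between the extremes. The peak chr11:88579048-88580446 was at 9.95%, 1.37% and 2.37%, with 1.18 to 1.76 counts per unthinned open cell. The choice by the largest ratio fixes that these peaks differ, and the other 7 had ratios, some of them lower bounds, from 6.61 to 7.69. Old 1 is also the set of the smallest number of thinned cells and the deepest cells, and the part of either in these differences was not tested.

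At 2000 counts per cell, the variance of single peaks over cells was little above the sampling level. For each of the 5481 peaks open in at least 5% of thinned cells in every old set, the variance of the counts over cells was divided by their mean, which is near 1 where counts are scattered at random over cells. Thinning itself draws this ratio towards 1, more so in deeper cells, so a value near 1 does not show that cells were alike. The mean of the 3 medians was 1.03 at 1000 counts, 1.06 at 2000 and 1.08 at 4000. Its median over peaks was 1.02, 1.08 and 1.08 for Old 1, Old 2 and Old 3. The central 90% of peaks ran from 0.905 to 1.26, from 0.937 to 1.33 and from 0.938 to 1.37. A value of 2 or more was reached by 9, 27 and 48 peaks. Which peaks were above the typical value hardly carried over between sets. After division by the median of peaks of like mean count (20 bins), Spearman's rho across peaks was 0.0388, 0.00529 and 0.0826 for Old 1 with Old 2, Old 1 with Old 3 and Old 2 with Old 3. Pearson's r, which the few extreme peaks dominate, was 0.360, 0.260 and 0.542.

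A small group of peaks had variable counts in all 3 sets. By this relative value, 9 peaks were at 1.5 or more in every old set and 21 at 1.2 or more. The 100 most variable peaks of each set had 16, 11 and 20 in common for the 3 pairs of sets. A list of 100 is 1.82% of the tested peaks.

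The highest minimum over sets belonged to chr18:73849207-73853114, the widest peak in the table at 3907 bp, which was open in 18.6%, 7.97% and 7.42% of cells in Old 1, Old 2 and Old 3. Its variance over mean was 4.45, 25.0 and 10.4. In Old 2 a single cell held 63 counts, 30.6% of all at this peak, and without that cell the value was 8.60. Without the highest cell of the other sets it was 3.19 in Old 1 and 8.12 in Old 3. At least 5 counts were found in 7, 13 and 17 of its 41, 29 and 25 open cells. Before thinning it held on average 15.3, 15.1 and 15.5 counts per open cell, and up to 97, 72 and 57 in a single cell. Whether kept duplicates or reads with several matches raised the counts of this and the other most variable peaks was not tested.

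The second on the list, chr18:7608697-7609836, had a variance over mean of 4.17, 9.10 and 12.0 and was open in 25.8%, 13.2% and 9.20% of cells. Leaving out its highest cell gave 3.47, 7.81 and 10.9, so it did not rest on 1 cell. Before thinning this peak held on average 14.5, 11.4 and 14.7 counts per open cell, and up to 132, 49 and 49 in a single cell. Both chromosome 18 peaks had their highest share in Old 1, the deepest set, and their lowest variance over mean there. The third, chr5:60433881-60434407, combined wide opening with a variance over mean of 2.77, 3.10 and 2.61. The others had lower but repeated values. They included chr11:115338781-115339803 (2.34, 3.88 and 4.05), chr4:126527185-126527994 (2.14, 4.01 and 3.36), chr5:140914575-140915690 (1.97, 5.21 and 4.64) and chr4:62254720-62255367 (1.81, 2.37 and 2.88). In 8 of the 10, including these 4, Old 1 had the lowest value of the 3 sets. For chr12:4430137-4431391 (1.66, 2.80 and 4.09) and chr1:127286220-127287249 (3.11, 2.13 and 1.68), 1 cell mattered: without it the first fell to 1.70 in Old 2 and the second to 1.82 in Old 1. The list closed with chr16:94919743-94921006 (1.43, 1.77 and 2.01). All 10 were at least 300 bp wide, as were 5454 of the 5481 tested peaks, so a list of wide peaks alone could hardly differ.

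The steadiest peaks sat slightly below the sampling level. The 10 with the lowest maximum had a variance over mean from 0.859 to 0.988 across sets. The lowest of them, chr2:103785088-103786751, was at 0.895, 0.928 and 0.923 and open in 10.9%, 7.42% and 8.01% of cells. Another, chr16:55933766-55935169, was at 0.859, 0.961 and 0.980 with shares of 14.5%, 15.9% and 15.4%. A peak that only ever holds 0 or 1 counts has a ratio of 1 minus its share of open cells, so values just under 1 are the floor of this measure.

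**Figure D3:**
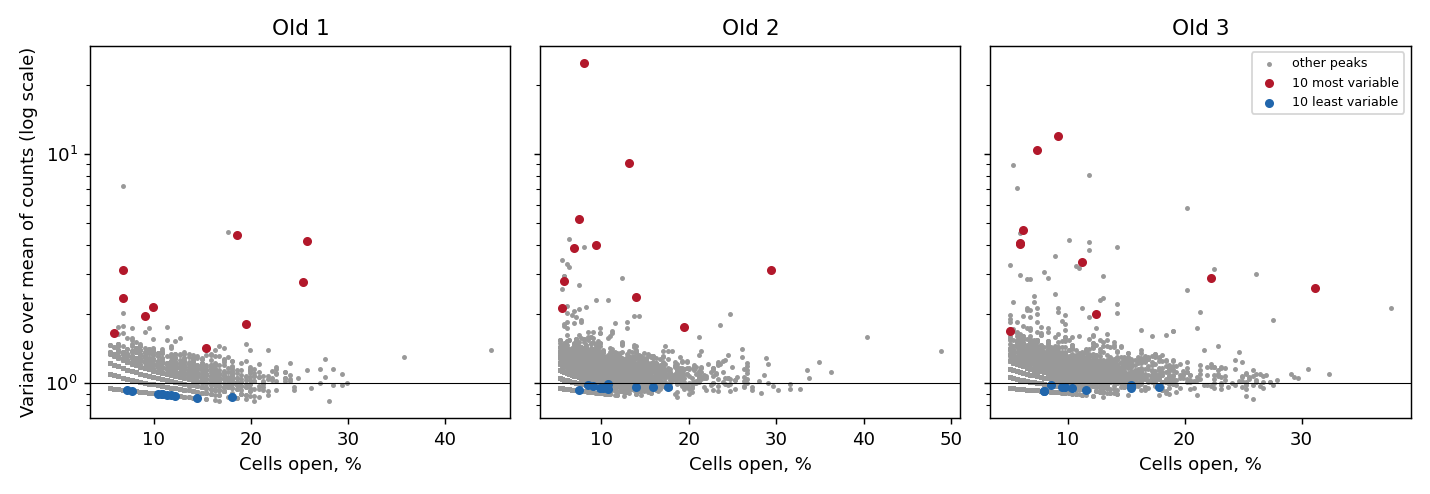
Variance over mean of thinned counts across cells (y axis, log scale) against the share of cells open (x axis, percent) for the 5481 tested peaks, 1 panel for each old set. The line marks 1, the level of random scatter. The 10 most variable peaks (red), chosen by their minimum over sets, lie above the line, and in each panel other peaks exceed some of them. The 10 least variable (blue) lie just below the line.

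Peaks that open in the same cells were sought with the phi coefficient, the correlation of open and not open across the cells of 1 set, which is 0 for peaks that open independently. Over 14191791 pairs of tested peaks on different chromosomes its mean was 0.000187, 0.000279 and 0.000314 in Old 1, Old 2 and Old 3. At under 1 kb apart (33 pairs) the mean was -0.0129, 0.0275 and 0.00403, and 12.1% of these pairs were above 0 in every set. At 1 to 5 kb apart (223 pairs) the mean was 0.0350, 0.101 and 0.117, and at 5 to 20 kb (743 pairs) 0.0335, 0.0843 and 0.0868. It was 0.0238, 0.0480 and 0.0521 at 20 to 100 kb and at most 0.0118 beyond 100 kb. Phi was above 0 in every old set for 42.5% of the 966 pairs at 1 to 20 kb. Among pairs on different chromosomes this share was 10.1%.

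A single stretch of chromosome 8 supplied most of this. Peaks within 100 kb of each other and with phi of 0.1 or more in every old set were joined into runs (0.0189% of pairs on different chromosomes reach that phi in every set). Of the 35 runs, 24 were single pairs, and the largest joined 45 peaks between chr8:126062361 and 126148009, while the next held 6. Without the peaks of that stretch the mean phi at 1 to 20 kb was 0.00955, 0.0221 and 0.0157 over 547 pairs, with 16.3% above 0 in every set. Averaged over the sets, phi fell from 0.0719 to 0.0158. Pairs within the stretch, at least 1 kb apart, averaged 0.0673, 0.175 and 0.195. The stretch was chosen by high phi in these same cells, so the fall and this high mean follow in part from the choice. Outside the stretch, mean phi was at most 0.0282 in any distance class. The phi of the 20041 pairs at 1 kb to 1 Mb outside it correlated between sets across pairs, with r of 0.202, 0.230 and 0.399, while r was 0.00105, 0.000525 and 0.00119 for pairs on different chromosomes. Pairs share peaks and cells, so these values are descriptions.

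**Figure D4:**
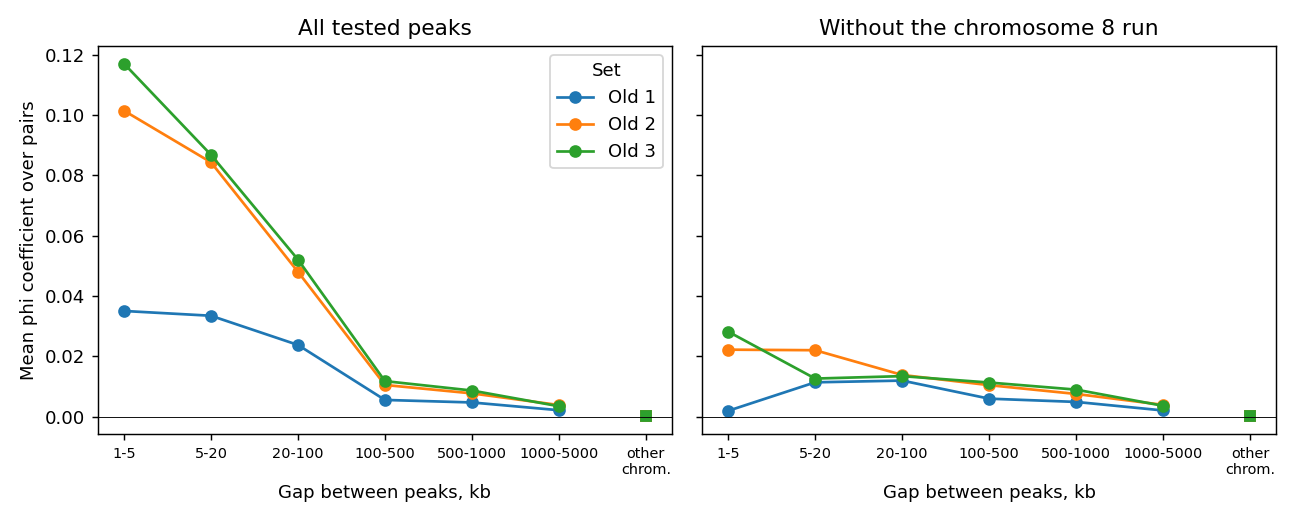
Mean phi coefficient over pairs of tested peaks (y axis) by the gap between them (x axis, kb, and pairs on different chromosomes as squares), for all tested peaks (left) and without the chromosome 8 run (right), 1 line for each old set. The high values at short range in Old 2 and Old 3 are largely absent on the right. The run was itself chosen by high phi in these cells.

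Phi at short range was lower in deeper cells, although all were thinned to the same count. In Old 2 the mean at 1 to 20 kb was 0.125 among cells of 2000 to 4000 counts, 0.0781 among 174 cells of 4000 to 8000 and 0.0270 among 42 of 8000 to 20000. In Old 3 it was 0.125 (175 cells) and 0.0638 (129 cells) in the first 2 classes. In Old 1 it was 0.0306 among 77 cells of 8000 to 20000 counts and 0.0143 among 85 deeper ones. In the class of 8000 to 20000 counts the means of Old 1 and Old 2 were close, while the medians were 0.0122 and -0.0349. The part of depth in the lower phi of Old 1 as a whole was not tested. Without the run the same classes gave -0.00234 to 0.0256, and the part of depth in that spread was not tested.

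The chromosome 8 stretch spans 85.6 kb and holds 53 peaks, whose starts are a median of 1698.5 bp apart (interquartile range 1640.5 to 1724 bp). Single peaks of the stretch had a median share of 11.3%, 15.7% and 15.1% of cells and a highest of 18.1%, 23.4% and 25.2%. Since the stretch was chosen for peaks that open together in these cells, a sum more variable than Poisson follows from the choice, and the values of the sum are a description. At 2000 counts a cell held 6.46 counts there on average in Old 1 (SD 5.65), 8.63 in Old 2 (SD 9.35) and 8.53 in Old 3 (SD 9.65), with a variance over mean of 4.94, 10.1 and 10.9. Cells ranged from 0 to 42, 50 and 49 counts.

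Cells without a count there made up 9.50% of Old 1 (21 cells, 95% Clopper-Pearson interval 5.98 to 14.2), 25.5% of Old 2 (93 cells, 21.1 to 30.4) and 28.2% of Old 3 (95 cells, 23.4 to 33.3). A Poisson distribution of the same mean has 0.157%, 0.0178% and 0.0197% at 0. Over all cells before thinning, the shallower ones included, the share at 0 was 24.5% in Old 1 (75 cells), 22.6% in Old 2 (86 cells) and 29.9% in Old 3 (112 cells). Old 1 was thus the lowest only among the thinned cells. The share at 0 among thinned cells fell with depth before thinning. It was 39.0% and 36.6% among cells of 2000 to 4000 counts in Old 2 and Old 3, 19.5% and 20.9% at 4000 to 8000, and 6.49% in Old 1 and 9.52% in Old 2 at 8000 to 20000. None of the 85 cells of Old 1 at 20000 counts or more was at 0, which allows a share of up to 3.53%. The mean moved less, from 5.95 to 9.15 counts over the same classes. In Young 1 and Young 2 the cells at 0 were 27.1% and 11.8%, with a mean of 7.63 and 10.8 counts per cell.

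The gene table used here, of assembly GRCm38.p6, lists 42 5S ribosomal RNA genes (n-R5s) on chromosome 8 and at most 5 on any other chromosome. The longest series of them with no other gene between holds 16. Whether the evenly spaced peaks are that cluster cannot be read from a table of another build.

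**Figure D5:**
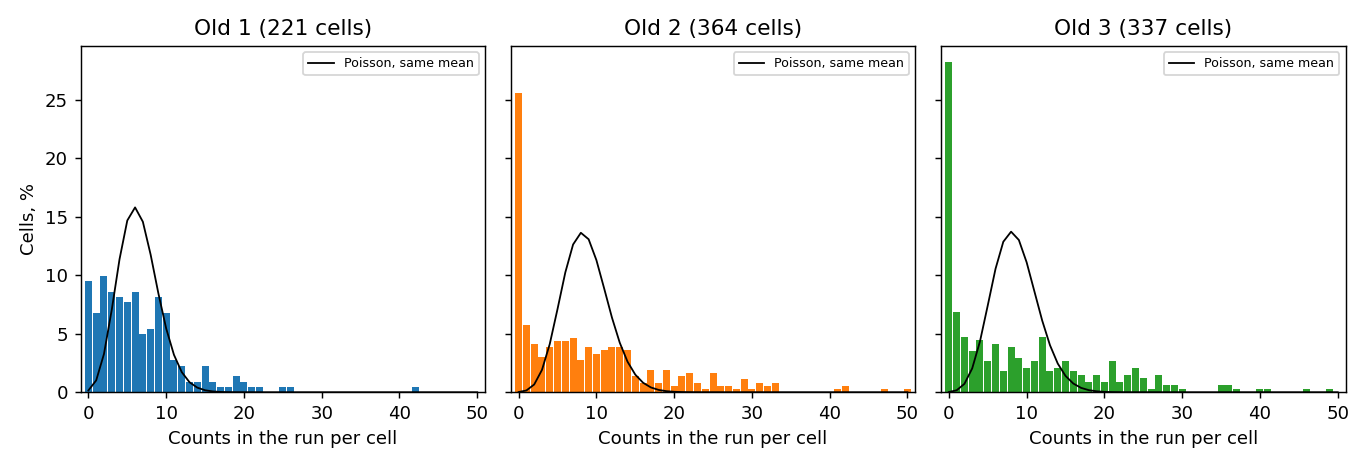
Percent of cells (y axis) by the number of counts in the chromosome 8 run after thinning to 2000 counts (x axis), 1 panel for each old set, with a Poisson distribution of the same mean as a line. Bars at 0 counts reach 9.50%, 25.5% and 28.2% of cells, and the bars extend well beyond the line on the right.

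Of the 7 runs of 4 or more peaks, 4 lay on chromosome 2, between chr2:175100154 and 176583863. They held 6, 6, 5 and 4 linked peaks, each spread over 163 to 260 kb. Counts in the first of them, chr2:175540892-175800655, averaged 1.25, 1.78 and 1.87 per cell with a variance over mean of 2.05, 2.02 and 2.37. Across cells, the counts of these 4 runs rose and fell together, with Pearson's r from 0.489 to 0.784 over the 6 pairs of runs and the 3 sets. For the other 15 pairs of runs r lay between -0.120 and 0.144. The remaining runs were on chromosome 11. At chr11:87256211-87285545, home of 3 of the most open peaks, cells held 1.34, 1.71 and 1.53 counts with a variance over mean of 2.19, 2.30 and 2.44. At chr11:101465789-101520428 they held 0.729, 0.662 and 0.801 counts with 2.13, 2.12 and 2.22.

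The 10 pairs on 1 chromosome with the highest minimum phi were 139 to 849 kb apart. The first joined chr17:6615422-6616335 with chr17:6845112-6846023, at phi of 0.495, 0.451 and 0.511. They were open together in 9, 13 and 16 cells, where independence gives 1.29, 1.93 and 2.48. A pair on chromosome 14, chr14:26746252-26747342 with chr14:26885997-26887084, followed at 0.462, 0.435 and 0.539, and chr4:42385324-42386657 with chr4:42632078-42633408 at 0.452, 0.424 and 0.423. The peaks of these 3 pairs differed in width by 2, 3 and 3 bp. Of the 10 pairs, 5 differed by 9 bp or less, 5 lay in the chromosome 2 stretch and 3 on chromosome 14. Most of the 21441 pairs searched were distant, 8736 at 100 to 500 kb and 8867 at 500 to 1000 kb. Phi of 0.2 or more in every set was reached by 0.897% of pairs at 1 to 5 kb and 0.942% at 5 to 20 kb. At 20 to 100, 100 to 500 and 500 to 1000 kb it was 0.801%, 0.641% and 0.372%. Without the chromosome 8 run the shares in this order were 0%, 0.682%, 0.534%, 0.651% and 0.382%.

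Strongly co-open peaks were closer in width than pairs as a whole. Pairs over 100 kb apart on 1 chromosome with phi of 0.2 or more in every set numbered 126 and had a median width difference of 51.5 bp, against 387 bp over all 822278 such pairs. On different chromosomes 42 pairs (0.000296%) reached 0.2, with a median difference of 173 bp against 392 bp. Whether such peaks share sequence was not tested, since no mm9 genome was used.

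The best pairs on different chromosomes were chr1:102120374-102121009 with chr14:83153063-83153467 (phi of 0.304, 0.306 and 0.445), and chr10:84488627-84489130 with chr5:60433881-60434407 (0.286, 0.455 and 0.390). The latter was open together in 20, 59 and 42 cells, where independence gives 9.63, 26.5 and 18.7, and it includes the third most variable peak. Then came chr13:21857224-21858355 with chr18:26164029-26164902 (0.359, 0.285 and 0.422). The first chromosome 1 peak appeared again with chr7:28718595-28719394 (0.278, 0.288 and 0.347). The last was chr1:53752302-53752851 with chr13:87770199-87770808 (0.272, 0.345 and 0.340). Such pairs were rare among all pairs tested, and being picked as the extremes of 14191791 they stand as descriptions.

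To look beyond single peaks, counts were summed in windows of 1 Mb with a mean of at least 1 count per cell in every set. The 743 windows had a median variance over mean of 1.07, 1.15 and 1.13, and 77.3%, 94.6% and 92.2% were above 1. This is not comparable with the value of single peaks, because the ratio grows with the summed mean wherever cells vary. Of the 10 highest, 6 held places already described. The window at 126 to 127 Mb of chromosome 8 was at 4.31, 9.04 and 9.59, that at 175 to 176 Mb of chromosome 2 at 3.29, 3.77 and 4.63, and that at 176 to 177 Mb at 2.84, 3.47 and 4.10. Windows holding the variable chromosome 18 peaks were at 7 to 8 Mb (2.95, 5.60 and 7.11) and 73 to 74 Mb (2.32, 11.1 and 5.22). The window at 42 to 43 Mb of chromosome 4 (1.96, 2.91 and 2.44) holds a pair of co-open peaks named above. The other 4 were at 114 to 115 Mb of chromosome 6 (1.68, 2.88 and 3.02), 177 to 178 Mb of chromosome 2 (1.68, 1.89 and 1.86), and 4 to 5 Mb (1.75, 2.09 and 2.35) and 6 to 7 Mb (1.58, 2.04 and 2.26) of chromosome 14. Relative to windows of like mean, Spearman's rho across windows was 0.145, 0.119 and 0.159 for Old 1 with Old 2, Old 1 with Old 3 and Old 2 with Old 3. Pearson's r, which a few extreme windows can dominate, was 0.688, 0.787 and 0.843.

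Whole chromosomes also varied between cells. The variance of a chromosome's share of counts over its binomial variance, averaged over the autosomes, was 1.5 in Old 1, 2.30 in Old 2 and 1.81 in Old 3, where 1 is the sampling level. Every autosome was above 1 in every old set, from 1.21 for chromosome 16 in Old 1 to 2.91 for chromosome 7 in Old 2. The young sets were at 2.37 and 2.00. At 2000 counts, 7 cells of Old 1 (3.17%), 46 of Old 2 (12.6%) and 12 of Old 3 (3.56%) had an autosome under 0.6 or over 1.5 times the median share of their set. In Young 1 and Young 2 there were 17 (9.60%) and 13 (9.03%) such cells, so they are not particular to old cells. The share that counting alone would give was not computed.

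A few cells stood out on all their counts too. Cell 38 of Old 1 had 1212 of 18438 counts on chromosome 19, or 6.57% (95% Clopper-Pearson interval 6.22 to 6.94), against a set median of 3.13%. This was 2.10 times the median, while its other autosomes lay between 0.859 and 1.09 times theirs. Cell 9 of Old 2 had 12.7% of 13588 counts on chromosome 11 (12.1 to 13.2, set median 6.80%), and its other autosomes ran from 0.710 to 1.53. Under the limits of 0.6 and 1.5 times the median, the first cell was beyond them in 1 autosome and the second in 2. On the low side, a cell of Old 1 with 5344 counts had 3.11% on chromosome 5 (2.66 to 3.61, set median 6.22%), and its other autosomes ran from 0.663 to 1.43. These cells were picked as the extremes of their sets.

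No leading axis divided the old cells in the same way in all sets. Principal components of the 19653 peaks open in at least 2% of cells in every set, weighted by inverse frequency, were computed within each set. The first took 0.581%, 0.398% and 0.429% of the variance, where an equal share for each cell would be 0.452%, 0.275% and 0.297%. Its peak loadings correlated between sets at an absolute r of 0.0917, 0.0987 and 0.223. In Old 1 it followed depth before thinning, with an absolute r of 0.656 with log10 counts across cells, against 0.183 in Old 2 and 0.0414 in Old 3. In Old 2 the third component followed depth, with an absolute r of 0.516.

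The thinned open peaks of single cells overlapped little, with similar mean values within and between sets. The mean Jaccard index of open peaks for pairs of cells was 0.0240, 0.0245 and 0.0235 within Old 1, Old 2 and Old 3 and 0.0233 to 0.0239 between them, with a highest of 0.0401 between sets. Column numbers recur between sets (303, 304 and 370 for the 3 pairs), and pairs of cells with the same number had a mean index of 0.0236 to 0.0240. Thinned counts are sparse, which keeps this index low even for cells that are alike. The index expected from the peak shares alone was not computed. How alike the cells were, within or between sets, therefore cannot be read from these values. The share of a cell's counts in the 1000 most open peaks, chosen in the other old sets, had a median of 7.40% (5.25 to 12.2) in Old 1, 8.30% (5.40 to 11.8) in Old 2 and 7.85% (5.40 to 11.6) in Old 3. Its SD over cells was 1.06, 1.04 and 1.12 points, above the binomial 0.591, 0.619 and 0.605. In Old 1 this share was lower in deeper cells (r of -0.575 with log10 counts across cells), while r was 0.0720 and 0.0205 in the others.

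Set beside the young sets, the old ones had a smaller part of their counts in the most covered peaks, a difference that the number of sets cannot test at the usual threshold. The top 1% of peaks held 9.38%, 10.0% and 9.64% of counts in the old sets and 12.1% and 11.7% in the young (mean 9.68% ± 0.314, SD, n = 3, and 11.9% ± 0.268, SD, n = 2). Peaks open in at least 25% of cells numbered 16, 38 and 35 against 77 and 75. The percent of peaks open in at least 5% of cells was 7.72%, 7.43% and 7.83% against 8.59% and 7.90%. Old and young sets did not overlap in these 3 measures. An exact permutation over the 10 ways to call 3 of the 5 sets old, two-sided by the size of the difference, gave p = 0.1 for each (0.233 adjusted over 7 measures by Benjamini-Hochberg), which is the smallest p this design allows. The median number of open peaks per cell overlapped between ages (mean difference 26.4, exact p = 0.6), as did the median variance over mean (exact p = 0.7), the mean phi of neighbours within 20 kb (exact p = 1) and the variance ratio of autosomes (exact p = 0.4). Because every set holds cells of a single age, age and how a set was prepared cannot be told apart. The top peaks and the cuts were also taken within each set, on its own counts. Both young sets had fewer thinned cells than any old set, and shares from fewer cells scatter more, which can raise such measures. The part of the cell number in the 3 measures without overlap was not tested.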

How the data were processed

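The deposited table holds whole-number counts per peak and cell, not normalized by the authors, as its values show. Per the submitters' processing notes, Trim Galore, FastQC, Bowtie2, SAMtools and Picard were used with build mm9. The sources used here give neither the peak caller nor the cell filters, nor whether reads or fragments were counted. Of the old cells' nonzero entries 79.2% were 1 and the highest was 139, and kept duplicates or reads with several matches would raise such counts. Every column matched 1 sample's title. The 5 sets held 1159957 to 4181770 counts.

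Cells of 2000 counts or more were thinned with seed 1 (numpy 2.4.6, scipy 1.17.1). Intervals cover counting error only. No doublet caller was run. Peaks named are the 10 with the highest minimum share over the old sets, the 10 with the highest minimum and 10 with the lowest maximum relative variance, the 10 pairs at 1 kb to 1 Mb and 5 on different chromosomes with the highest minimum phi, and the 10 with the largest ratio between sets. Runs, windows and single cells were added later. The variance and phi steps were tested on simulated data. The members, lists and rules were chosen with earlier results of these data known. Replicates are the sets, and nothing says they came from separate animals, so a p-value reflects only how these sets vary, possibly for technical reasons. Alternatives concerned the thinning depth, peak filters, count limits and each set left out.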

Additional observations from a re-analysis of the deposited data

How the results depend on the processing

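Values are means over the 3 old sets. Depth moved most of them. The percent of peaks open in 5% or more of cells was 7.66%, and 1.71% at 1000 counts, 18.5% at 4000, 31.0% unthinned, 0.0202% when open meant 2 or more counts, 10.9% without peaks under 300 bp and 8.96% in cells of 2000 to 8000 counts. Open peaks per cell numbered 1885, and 968 and 3622 at 1000 and 4000 counts. Pearson's r between sets was 0.883, and 0.818 at 1000 counts, 0.944 unthinned, 0.846 among peaks open in at least 1% of old cells and 0.797 in cells of 2000 to 8000 counts, where Old 1 keeps few cells. Mean phi at 1 to 20 kb was 0.0719, and 0.0282 at 4000 counts, 0.0147 and 0.170 for peaks open in at least 2% and 10%, 0.0288 at 2 or more counts and 0.0158 without the chromosome 8 run. The agreement of first components was 0.138, and 0.218 and 0.0533 at 1000 and 4000 counts. The median variance over mean, 1.06, and the autosome ratio, 1.87, stayed within 1 SD of the sets under each alternative run for them, but the former was 1.03 at 1000 counts and 1.08 at 4000, so its distance from 1 grew with depth. The cells of 2000 to 8000 counts and the omission of the run were chosen after seeing the data. The cause of the other moves was not tested.

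Leaving out each set in turn gave 7.57% to 7.77% of peaks, 1867 to 1895 open peaks per cell, r of 0.863 to 0.909, variance over mean of 1.05 to 1.08, phi of 0.0610 to 0.0910, component agreement of 0.0917 to 0.223 (highest without Old 1) and an autosome ratio of 1.66 to 2.05. The old minus young difference in open peaks per cell, 26.4, ran from 4.67 (without Young 1) to 48.2 (without Young 2). With the set number as a replicate block over sets 1 and 2 it was 36.0, and none of the other 6 differences changed sign. The shared numbers are only names and pair no samples. The difference in median variance over mean, 0.0144, ran from -0.0212 (without Young 2) to 0.050 (without Young 1), and that in phi, -0.00169, from -0.0109 (without Young 2) to 0.0112 (without Old 1), with 0.00748 without Young 1. Small shares rest on few cells.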
